A study of Mus musculus with 6 samples.

Results

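The transcripts of the 4 Id genes (Id1, Id2, Id3 and Id4), of the bHLH genes Neurod1 and Neurod4 and of the zinc finger gene Insm1 were followed in bulk RNA-seq libraries of LβT2 cells. They were chosen by gene symbol, through the gene identifiers of the deposited count table, and make up 7 of its 47069 genes and 7 of the 14736 that passed the filter on low counts. LβT2 is a single mouse gonadotrope cell line, used here at passage 14. All 6 libraries came from cells given GnRH at 2 nM over 40 min, so a response to GnRH cannot be read from them. In the fresh group (3 libraries) the cells were lysed directly, and in the RNA-Best group (3 libraries) they were first kept at 4°C in the preservation reagent RNA-Best, which the methods give as at least 4 days. The comparison asks whether preservation leaves the transcript levels of these regulators as they are in fresh cells. Whether the cultures behind the replicates were separate is not given in the sources used here, so p-values measure the spread between libraries, which may be technical.

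Id proteins (inhibitors of DNA binding) have the helix-loop-helix through which bHLH transcription factors pair, but lack the basic region that contacts DNA. They pair with the widely expressed E proteins (Tcf3, Tcf4 and Tcf12) and keep them from forming active dimers with tissue-specific bHLH partners. Such partners include Neurod1 and Neurod4, activators of neuronal and endocrine differentiation; in the pituitary, Neurod1 is best known for its part in Pomc transcription in corticotropes. Insm1 is not a bHLH protein. It is a zinc finger repressor found in neuroendocrine cells, including those of the pituitary, and acts with histone demethylase and deacetylase complexes. Id1 and Id3 are well known targets of BMP receptors and the Smad proteins they phosphorylate.

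The helix-loop-helix is the feature that defines the Id family, and its coding stretch shows how far the 4 transcripts can be told apart by reads. It was sought in the annotated transcripts (GENCODE, GRCm38) as the ungapped coding window of 123 bases most alike in all 4 genes. Capitals mark the 72 bases (58.5%) that are identical in all 4 genes. The window was chosen for its likeness and not from a domain annotation, which raises the shares of identical bases given here. The stretch lies in coding exon sequence at chr2:152736524-152736646 (plus strand, exon 1) in Id1, chr12:25095774-25095896 (minus strand, exon 2) in Id2, chr4:136144008-136144130 (plus strand, exon 1) in Id3 and chr13:48261699-48261821 (plus strand, exon 1) in Id4.
Id1: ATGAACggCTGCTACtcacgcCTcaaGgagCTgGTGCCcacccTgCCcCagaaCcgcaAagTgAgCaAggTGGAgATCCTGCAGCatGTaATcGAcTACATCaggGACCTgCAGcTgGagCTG
Id2: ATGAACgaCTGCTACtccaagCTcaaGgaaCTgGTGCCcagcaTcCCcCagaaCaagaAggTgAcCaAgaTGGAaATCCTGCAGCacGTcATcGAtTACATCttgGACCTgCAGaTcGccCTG
Id3: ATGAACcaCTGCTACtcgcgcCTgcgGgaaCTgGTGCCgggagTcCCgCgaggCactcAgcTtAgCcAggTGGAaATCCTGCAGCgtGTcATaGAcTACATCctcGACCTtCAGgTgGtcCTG
Id4: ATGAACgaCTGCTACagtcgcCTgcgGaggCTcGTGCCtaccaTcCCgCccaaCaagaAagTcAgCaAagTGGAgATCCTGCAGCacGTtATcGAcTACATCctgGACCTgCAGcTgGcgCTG
Pairs of genes shared between 69.9% (Id1 and Id3) and 79.7% (Id1 and Id2) of these bases. Capitals run together for at most a few codons, and the longest exact run shared by the transcripts of any 2 of the 7 genes was 19 bases (Id2 and Id3), far shorter than a read. The counts of Id1, Id3, Id4, Neurod1 and Neurod4 were whole numbers in every library. Those of Id2 and Insm1 held parts of counts in 3 libraries each, and what their reads were divided between is not given in the sources used here.

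Total counts were 40535204, 47438746 and 14477304 in the fresh libraries and 8773187, 4909418 and 11999363 in the RNA-Best libraries, and levels are given as CPM, the count per 1000000 of these totals. Sequencing was deeper in each of the fresh libraries than in any RNA-Best library. A count of 0 leaves room for at most 0.0632 to 0.611 CPM, depending on the library. Gonadotrope markers were present in all libraries, with 8 of 9 above 1 CPM and Fshb at 0. Their summed level was 3236 to 3278 CPM in fresh and 2730 to 2803 CPM in RNA-Best libraries, of which Cga made up 1813 CPM in fresh and 1426 CPM in RNA-Best libraries on average. By the test used below, Cga, Nr5a1 and Pitx1 were lower, and Gnrhr (119 and 164 CPM) and Foxl2 (23.8 and 30.7 CPM) were higher. Of 9 markers of other pituitary endocrine cells, Prl, Pou1f1 and Pax7 were at 0 in every library, and the list summed to 14.6 to 17.3 CPM in fresh and 12.4 to 16.2 CPM in RNA-Best libraries, mainly from Crhr1. The thyrotrope hormone gene Tshb was higher in RNA-Best (0.909 ± 0.137 and 1.64 ± 0.563 CPM, SD, n = 3, log2 fold change 0.91, adjusted p = 0.00350, edgeR), and no other gene of this list passed. The stem or folliculostellate list (6 genes, Sox2 at 0) summed to 2.69 to 2.86 and 0.815 to 3.08 CPM, and none of its genes passed. The endothelial, blood and connective tissue list (11 genes, Ptprc and Dcn at 0) summed to 194 to 196 and 199 to 213 CPM, mainly from Cdh5, with Cdh5 higher (log2 fold change 0.12, adjusted p = 0.00228) and Pecam1 lower (-0.15, adjusted p = 0.0150, edgeR). The part of these markers in the differences of the 7 genes was not tested.

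In RNA-Best relative to fresh cells, Id1 fell by 22.7%, Id3 fell by 20.7% and Insm1 fell by 9.18%. Id2 differed by -5.16%, and neither Id2 nor Id4, Neurod1 or Neurod4 passed the test. None of the 7 genes passed as higher. The test was the quasi-likelihood F-test of edgeR, with p adjusted by Benjamini-Hochberg over all tested genes, at a false discovery rate of 5%. Of the 7 genes 3 passed, all as lower, where 50.8% of all tested genes passed, 24.8% as lower and 26.0% as higher in RNA-Best. The CPM values of the groups did not overlap for 5 of the 7 genes (Id1, Id2, Id3, Neurod1 and Insm1), against 57.5% of all tested genes. The biological coefficient of variation common to all genes was 2.14%. Differences of a few percent passed the test in some abundant transcripts and not in others, such as Id2. In bulk libraries a lower level can come from fewer cells that express a gene or from less RNA per cell. As CPM is a share of the library, it can also come from a rise of other transcripts. These cannot be told apart here.

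**Figure D1:**
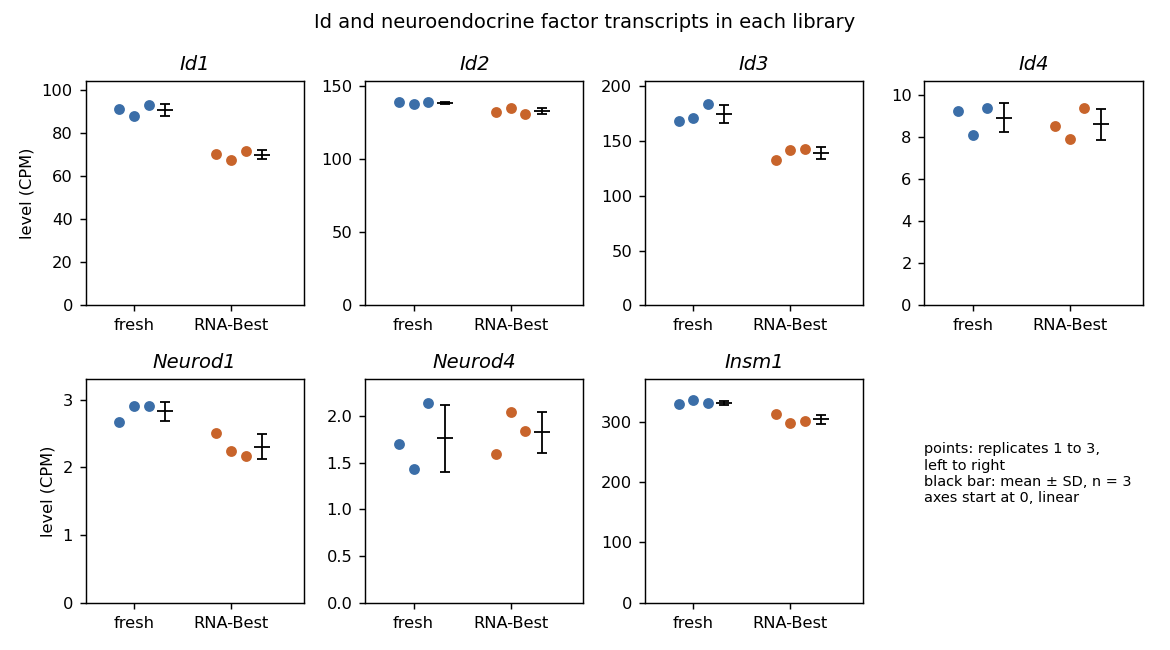
Level of each of the 7 transcripts in each library, in CPM on linear axes that start at 0. Points are the libraries (replicates 1 to 3 from left to right, fresh in blue, RNA-Best in orange) and black bars the mean ± SD (n = 3). For Id1, Id2, Id3, Neurod1 and Insm1 every RNA-Best point lies below every fresh point, while the points of Id4 and Neurod4 overlap.

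Id1 (ENSMUSG00000042745, chr2:152736251-152737410, plus strand, 2 exons in the main transcript) is the Id gene most closely tied to BMP signalling. Its level was 91.2, 87.7 and 93.0 CPM in the fresh libraries and 70.3, 67.6 and 71.8 CPM in the RNA-Best libraries. The groups were far apart, with the highest RNA-Best library below the lowest fresh one. The means were 90.7 ± 2.69 and 69.9 ± 2.13 CPM (SD, n = 3), a log2 fold change of -0.37 (SE 0.04, 95% interval -0.46 to -0.29, adjusted p = 2.95e-09). Among the 7 genes Id1 alone also passed a test against a fold change of 1.2 (edgeR glmTreat, adjusted p = 0.0181), a test that 11.5% of all tested genes passed and 2.82% of all tested genes passed as lower in RNA-Best. Id1 passed under all 16 alternatives, with adjusted p from 9.12e-20 to 0.0181.

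Id3 (ENSMUSG00000007872, chr4:136143497-136145755, plus strand, 3 exons) had the highest level per kilobase of the Id genes. In CPM it stood at 169, 171 and 184 CPM in fresh and at 132, 142 and 143 CPM in RNA-Best libraries. Again no RNA-Best library reached the fresh ones, although the spread within each group was wider than for Id1 or Id2. The means of 174.5 ± 8.06 and 139.0 ± 5.66 CPM (SD, n = 3) gave a log2 fold change of -0.33 (SE 0.04, 95% interval -0.41 to -0.26, adjusted p = 2.21e-09). Against a fold change of 1.2 the adjusted p of Id3 was 0.0695 (edgeR glmTreat), the highest of its 16 alternatives, and the lowest was 3.14e-24.

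Id2 (ENSMUSG00000020644, chr12:25093799-25097140, minus strand, 4 exons) showed the tightest replicates of the family. The fresh libraries gave 138.8, 137.7 and 138.7 CPM and the RNA-Best libraries 132.4, 135.1 and 131.0 CPM. All RNA-Best values lay just below the fresh ones. The difference between 138.4 ± 0.569 and 132.9 ± 2.08 CPM (SD, n = 3) was -0.08 on the log2 scale (SE 0.03, 95% interval -0.14 to -0.01) and did not pass the test (edgeR, adjusted p = 0.0568). It passed without the filter on low counts (log2 fold change -0.12, adjusted p = 0.00445, in a fit that moved the median over all tested genes from -0.0074 to -0.064) and with an offset for GC content (-0.20, adjusted p = 2.00e-06), and in none of the other 14 alternatives, where the adjusted p reached 1.

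Id4 (ENSMUSG00000021379, chr13:48261228-48266026, plus strand, 3 exons) had the lowest level per kilobase of the Id genes. Its level was 9.28, 8.14 and 9.39 CPM in fresh and 8.55, 7.94 and 9.42 CPM in RNA-Best libraries, from 39 to 386 counts a library. The groups overlapped fully, with means of 8.94 ± 0.694 and 8.64 ± 0.741 CPM (SD, n = 3). The log2 fold change was -0.01 (SE 0.11, 95% interval -0.22 to 0.21, adjusted p = 0.992), an interval that holds a fall of the size seen for Id2 but not those estimated for Id1 and Id3. Its sign turned under several alternatives. Exons of Id4 overlap those of A330033J07Rik over 82 bases and of Gm49291 over 171 bases, both on the opposite strand, and the use of strand in counting is not given in the sources used here.

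Levels within the Id family were also compared as ratios inside each library, which do not depend on scaling but keep trends with length and GC content. Id1 (1160 bases, 55.2% G and C) and Id3 (1791 bases, 55.6%) are shorter and richer in G and C than Id2 (2438 bases, 45.1%). The ratio of Id1 to Id2 was 0.657, 0.637 and 0.671 in fresh and 0.531, 0.500 and 0.548 in RNA-Best libraries. The ratio of Id3 to Id2 was 1.26 ± 0.0569 in fresh and 1.05 ± 0.0439 in RNA-Best libraries (SD, n = 3). For both, and for Insm1 to Id2 (2.40 ± 0.0337 and 2.29 ± 0.0783), the groups did not overlap. A two-sided exact permutation test gave p = 0.1 for each, or 0.167 adjusted over 5 ratios, and with 3 libraries in each group no smaller p is possible. The ratio of Id1 to Id3 was 0.520 ± 0.0182 in fresh and 0.504 ± 0.0273 in RNA-Best libraries (p = 0.4, adjusted 0.5, by the same exact test), and that of Id4 to Id2 was 0.0646 ± 0.00477 and 0.0651 ± 0.00656 (p = 1, by the same exact test).

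Neurod1 (ENSMUSG00000034701, chr2:79452521-79456751, minus strand, 2 exons) was measured from few reads, with 108, 138 and 42 counts in fresh and 22, 11 and 26 counts in RNA-Best libraries. These are levels of 2.66, 2.91 and 2.90 CPM and of 2.51, 2.24 and 2.17 CPM. The groups did not overlap, but the exact Poisson interval of the shallowest RNA-Best library alone ran from 1.12 to 4.01 CPM (95%, counting error only) and covered all fresh values. The means were 2.82 ± 0.139 and 2.31 ± 0.179 CPM (SD, n = 3), with a log2 fold change of -0.30 (SE 0.21, 95% interval -0.72 to 0.11, adjusted p = 0.202). This difference did not pass the test. It passed only with the offset for GC content (-0.45, adjusted p = 0.0486, where the adjusted p over all alternatives reached 0.887), and exons of Neurod1 overlap those of Cerkl on the same strand over 201 bases and of Gm26755 on the opposite strand over 154 bases.

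Neurod4 (ENSMUSG00000048015, chr10:130268152-130280240, minus strand, 2 exons) had the lowest level per kilobase of the 7 genes, with 69, 68 and 31 counts in fresh and 14, 10 and 22 counts in RNA-Best libraries. The levels were 1.70, 1.43 and 2.14 CPM in fresh and 1.60, 2.04 and 1.83 CPM in RNA-Best libraries. The lowest and the highest value were both fresh, and the groups overlapped. The log2 fold change was 0.11 (SE 0.24, 95% interval -0.37 to 0.60, adjusted p = 0.722), which leaves room for changes in both directions larger than that of Insm1.

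Insm1 (ENSMUSG00000068154, chr2:146221921-146225020, plus strand, a gene of 1 exon) was the other abundant transcript beside Id1, Id2 and Id3. It stood at 329, 335 and 330 CPM in fresh and at 312, 298 and 301 CPM in RNA-Best libraries. The groups were close but did not overlap. Means of 331.6 ± 3.30 and 303.8 ± 7.61 CPM (SD, n = 3) gave a log2 fold change of -0.14 (SE 0.03, 95% interval -0.20 to -0.08, adjusted p = 0.000121). With an offset for GC content the value was -0.02 (adjusted p = 0.626), and the adjusted p over all 16 alternatives ran from 1.71e-08 to 1. The exonic sequence of Insm1 is 62.0% G and C, a higher share than in 97.8% of the 12219 tested protein-coding genes.

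**Figure D2:**
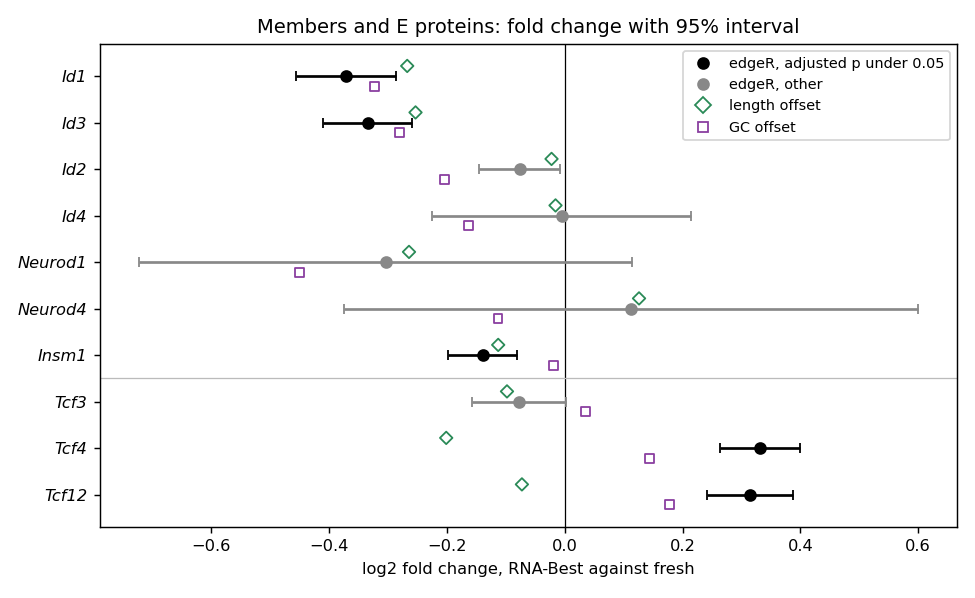
Log2 fold change (x axis, RNA-Best against fresh) of the 7 transcripts and, below the grey line, of the 3 E proteins. Circles with bars are the edgeR estimate with its 95% interval (black, adjusted p under 0.05), open diamonds the estimate with an offset for exonic length and open squares that with an offset for GC content. Id1 and Id3 stay below 0 in all 3 fits, Insm1 moves to -0.02 with the GC offset, and Tcf4 and Tcf12 cross 0 with the length offset.

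Levels of different genes were compared per kilobase of exonic sequence. In fresh cells Insm1 led with 107.0 ± 1.06 CPM per kb, followed by Id3 (97.5 ± 4.50), Id1 (78.1 ± 2.32), Id2 (56.8 ± 0.233), Id4 (2.32 ± 0.180), Neurod1 (1.04 ± 0.0509) and Neurod4 (0.526 ± 0.107 CPM per kb, SD, n = 3). In RNA-Best cells the order was the same, with 98.0 ± 2.46 for Insm1, 77.6 ± 3.16 for Id3, 60.3 ± 1.84 for Id1 and 54.5 ± 0.855 CPM per kb for Id2. In each group, neighbours in this order did not overlap in their values over 3 libraries. The place of Insm1 rests on the length used, since with the length of the main transcript, chosen after seeing the data, Id3 stood first at 136.6 CPM per kb in fresh and 108.7 CPM per kb in RNA-Best cells. Of the Id genes, Id4 stood far below the other 3, and both Neurod genes stood near the lower end of what these libraries could measure.

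The 7 genes are compact, and the fold changes of all tested genes moved with exonic length. Id1 (1160 bases) and Id3 (1791 bases) have less exonic sequence than all but 3.18% and 9.96% of tested protein-coding genes. Id2 (2438 bases), Neurod1 (2729), Insm1 (3100), Neurod4 (3345) and Id4 (3849) come next, all shorter than the median of all tested genes (3925 bases). Introns are short as well, at 226 bases in Id1, 618 in Id3, 950 in Id4, 1373 in Id2 and 1502 in Neurod1, against 8744 in Neurod4 and none in Insm1.

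Tested genes with 1 to 2 kb of exonic sequence had a median log2 fold change of -0.18 (quartiles -0.30 and -0.01), and Id1 and Id3 lay below the lower quartile. At 2 to 3 kb the median was -0.13 (quartiles -0.23 and 0.01), with Id2 between the quartiles and Neurod1 below them. At 3 to 4 kb it was -0.06 (quartiles -0.17 and 0.07), with Id4 and Insm1 between the quartiles and Neurod4 above them. The median was 0.20 above 6 kb, a length none of the 7 genes reaches, and -0.0074 over all tested genes. With an offset for length the log2 fold changes were -0.27 for Id1 (adjusted p = 2.29e-06), -0.25 for Id3 (4.08e-07), -0.11 for Insm1 (0.00149) and -0.02 for Id2 (0.629, edgeR), so the same 3 genes passed. With that offset 2151 genes were higher and 4055 lower, in place of 3828 and 3651, and the median over all tested genes moved from -0.0074 to -0.051. The part of length in the differences of the 7 genes was not tested beyond this offset.

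**Figure D3:**
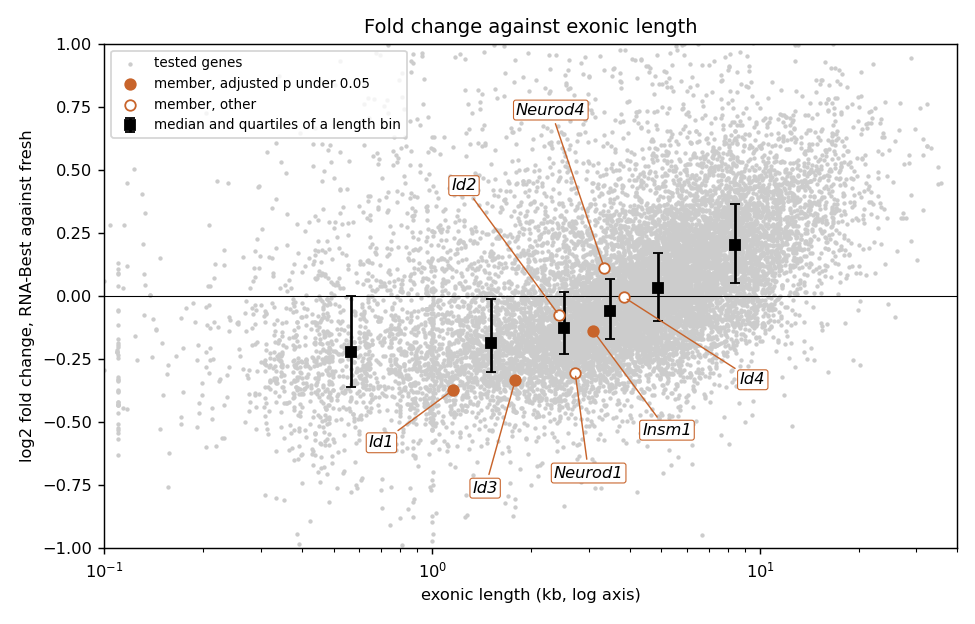
Log2 fold change (y axis, RNA-Best against fresh) against exonic length (x axis, kb, log axis). Grey points are 14437 tested genes, with 240 outside the axes, and black squares with bars the median and quartiles of length bins. Orange circles are the 7 genes (filled, adjusted p under 0.05), with Id1 and Id3 at the short end and below the lower quartile of their bin.

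The 3′ UTRs of the 7 genes also differ. The pentamer ATTTA, the core of AU-rich elements that mark many unstable mRNAs, was counted in the strand of the main transcript, with overlapping matches allowed. It was found 0 times in the 3′ UTRs of Id1 (397 bases) and Id3 (536 bases), 3 times in Id2 (785 bases), 5 times in Insm1 (1189 bases), 6 times in Neurod1 (1443 bases), 9 times in Id4 (3093 bases) and 15 times in Neurod4 (2259 bases). Of 12056 tested coding genes with a 3′ UTR, 67.2% hold the pentamer, and of 1878 genes with a 3′ UTR of 300 to 600 bases 54.0% hold none, so its absence from Id1 and Id3 is common at their length. A match describes the letters and not a site in use.

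Genes with the most similar pattern were sought by Pearson's r of log2 CPM over the 6 libraries, among genes of at least 10 CPM. The libraries form 2 groups, so r mainly follows the difference between groups, and it is given as a description. The nearest genes were Tppp3 (r = 0.9997) and Rps25-ps1 (0.9990) for Id1, Pias4 (0.9999) and Aamdc (0.9981) for Id3, Cops8 (0.9986) and Inha (0.9984) for Insm1, Sf3b6 (0.9980) and Pcid2 (0.9977) for Id2 and Aldoa (0.9989) and Stx1a (0.9948) for Neurod1. Id4 came nearest to Idh3a (0.9814) and Fam234b (0.9748), and Neurod4 to Trim32 (0.9916) and Orai2 (0.9767). Such likeness was frequent for the 5 genes whose groups did not overlap, as 2262 of 10190 genes had r over 0.9 with Id1, 1933 with Id3, 1732 with Insm1, 1071 with Id2 and 920 of 10191 with Neurod1, against 33 with Id4 and 15 with Neurod4.

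The partners and inputs of these regulators were listed by role, 129 genes in all, of which 75 were tested. Of these, 28 were higher and 13 lower in RNA-Best, with a median log2 fold change of 0.02. The shares over all tested genes were 26.0% higher and 24.8% lower, and the counts for each list below are to be read against them. With an offset for length the split was 15 higher and 21 lower (median -0.05), where all tested genes split into 2151 higher and 4055 lower with the same median of -0.05. Pooled, the tested list genes had a median exonic length of 4829 bases against 2729 for the 7 members, while that of the 5 tested tissue-specific bHLH activators alone was 2481 bases.

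Of the 3 E proteins, which Id proteins bind, Tcf4 and Tcf12 were higher in RNA-Best and Tcf3 did not pass the test. Tcf4 stood at 133.8, 136.8 and 129.9 CPM in fresh and 175.2, 168.7 and 166.8 CPM in RNA-Best libraries (log2 fold change 0.33, SE 0.03, adjusted p = 2.54e-10). Tcf12 stood at 104.1, 100.9 and 98.1 CPM and at 126.9, 125.7 and 128.8 CPM (0.31, SE 0.04, adjusted p = 4.12e-09). Both are long genes, of 27382 and 15529 exonic bases. With the length offset Tcf4 passed in the opposite direction (-0.20, adjusted p = 2.87e-06) and Tcf12 did not pass (-0.07, adjusted p = 0.0956), and with the GC offset both stayed higher, by 0.14 and 0.18. Tcf3, with 4039 bases, had 103.5 ± 5.07 CPM in fresh and 99.8 ± 0.250 CPM in RNA-Best libraries (SD, n = 3) and did not pass (log2 fold change -0.08, adjusted p = 0.103, edgeR). Without fresh replicate 3 it passed (-0.10, adjusted p = 0.0208), as it did with the length offset and without the filter, with adjusted p over all alternatives up to 1.

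Tissue-specific bHLH activators other than the Neurod genes above were mostly silent. Of 44 listed genes 17 were at 0 in every library and 5 were tested, with a median log2 fold change of -0.11. The only one to pass was Mesp2, which lies outside the rule for named genes and was named after its values were seen (4.17 ± 0.131 and 3.17 ± 0.795 CPM, log2 fold change -0.51, adjusted p = 0.00896, edgeR). Of 12 Hes, Hey and Bhlhe repressors, 6 were tested, and 1 was higher and 1 lower (median -0.15, 0 higher and 2 lower with the length offset). Hes6, an atypical member that opposes Hes1, fell from 403.3 ± 12.9 to 331.6 ± 7.94 CPM (SD, n = 3, log2 fold change -0.29, adjusted p = 5.07e-10), with -0.18 under the GC offset (adjusted p = 2.75e-06). Bhlhe40 was higher by 0.10 (adjusted p = 0.0484), but passed in only 4 of 17 settings. It lost the call when any library other than fresh replicate 3 was left out (adjusted p 0.0697 to 0.217), and with the length offset (0.392), the GC offset (0.477), thinning (0.539), no filter (0.464) and the DESeq2 Wald test (0.135).

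In the Notch pathway, which drives Hes repressors, 30 of 35 genes were tested, and 10 were higher and 7 lower (median 0.01, 4 higher and 10 lower with the length offset). The receptor Notch3 was higher by 0.81 (adjusted p = 3.09e-05), although its values overlapped between groups, and Spen, a corepressor of Rbpj, by 0.60 (adjusted p = 1.22e-11), which was 0.24 with the length offset (adjusted p = 0.000122). The Notch ligand homologue Dlk2 and the γ-secretase subunit Psenen had log2 fold changes of -0.43 and -0.38 (adjusted p = 4.81e-05 and 1.89e-08, edgeR), of which that of Dlk2 did not pass after thinning to the smallest library (-0.23, adjusted p = 0.21). Of 10 receptors and Smad proteins of the BMP input to Id genes, 9 were tested, and 4 were higher and none lower (median 0.22, 3 higher and 1 lower with the length offset). Smad5, a transducer of BMP signals, was higher by 0.31 (adjusted p = 3.26e-06), and by 0.15 with the length offset (adjusted p = 0.0190) and 0.18 with the GC offset. The receptor Bmpr2 was higher by 0.24 (adjusted p = 3.83e-06), which turned to -0.18 with the length offset (adjusted p = 0.000216) and did not pass with the GC offset (0.06, adjusted p = 0.229).

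Of 19 corepressor partners of Insm1 and related zinc finger genes, 16 were tested, and 9 were higher and 1 lower (median 0.23, against 0.0040 with the length offset, 7 higher and 2 lower). Gse1, a subunit of demethylase complexes, was higher by 0.71 (adjusted p = 9.61e-12) and the neuronal zinc finger gene Myt1l by 0.66 (adjusted p = 7.04e-12). With the length offset they were higher by 0.44 and 0.30 (adjusted p = 2.01e-07 and 2.47e-05). Hdac1, a histone deacetylase, had a log2 fold change of -0.15 (adjusted p = 0.000189). All 6 genes listed for the turnover of Id proteins were tested, with 2 higher and 3 lower (median -0.05). Wdr48, a partner of the deubiquitinase Usp1, and the ubiquitin ligase Smurf2 were each higher by 0.27 (adjusted p = 3.19e-05 and 2.89e-06). With the length offset Wdr48 did not pass (0.05, adjusted p = 0.462) and Smurf2 was higher by 0.15 (adjusted p = 0.00423). Cdc20 and Fzr1, the activators of the anaphase-promoting complex, had log2 fold changes of -0.28 and -0.22 (adjusted p = 1.68e-07 and 0.000269, edgeR). The value of Fzr1 was -0.13 without RNA-Best replicate 1 (adjusted p = 0.0275) and -0.11 with the GC offset (adjusted p = 0.0497).

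**Figure D4:**
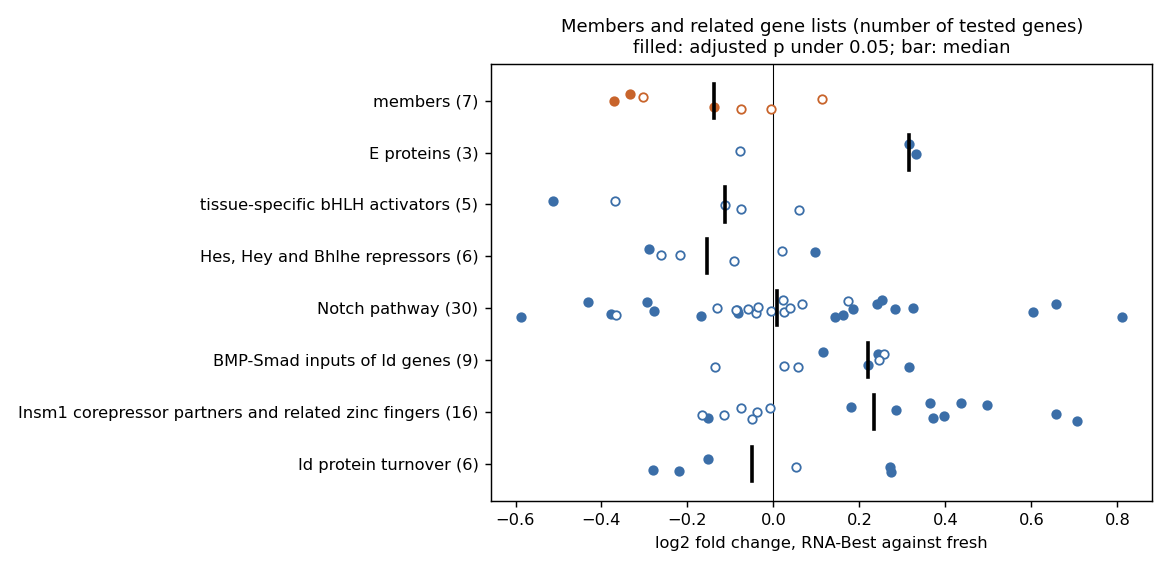
Log2 fold change (x axis, RNA-Best against fresh) of the tested genes of each list, with the 7 genes on top in orange. Filled circles passed the test (edgeR, adjusted p under 0.05), open ones did not, black bars are medians, and heights within a list are spread at random. The median of the 7 genes is -0.14, and the lists range from -0.15 (Hes, Hey and Bhlhe repressors) to 0.31 (E proteins).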

How the data were processed

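Bulk mRNA libraries of GnRH-treated LβT2 cells, 3 fresh and 3 RNA-Best, were sequenced as single reads. Per the methods and processing notes, the authors aligned reads to GRCm38 (mm10) with STAR 2.5.1b and counted them per GENCODE gene with featureCounts 1.5.0-p1. The deposited table holds estimated counts for each gene, not scaled, and 9.36% to 16.3% of a library's values lay more than 0.001 from a whole number. The setting that divides reads is not given in the sources used here.

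Counts were rounded and tested in R 4.3.3 with the quasi-likelihood test of edgeR 4.0.16 (TMM, filterByExpr with minimum count 10, Benjamini-Hochberg). SE was the log2 fold change over the square root of F, and at least the counting error. Intervals for single libraries are exact Poisson intervals and, like the limit of 3 counts behind a 0, cover counting error only. Positions, lengths, GC content and transcript sequences came from a later GENCODE release on GRCm38, which gave a length to all but 59 tested genes. Length and GC offsets were loess curves (span 0.5) fitted in each library. The test was checked on simulated data. Alternatives were DESeq2 1.42.0, limma 3.58.1 (voom), glmTreat, no filter, offsets, thinning, a replicate block and leaving out single libraries.

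The 7 genes and all lists were chosen with earlier results of these data known. Named are all members and E proteins, in each other list the 2 largest changes each way among genes that passed with a mean of at least 5 CPM over all 6 libraries, and the 2 genes nearest to each member. Deviations of same-numbered libraries correlated by -0.0084 to 0.0121. As the spread in RNA-Best pairs was near counting noise, this cannot show whether same-numbered libraries were paired. The chi-square per gene, near 1 for counting noise alone, was 1.82 to 2.21 in fresh and 1.08 to 1.29 in RNA-Best pairs, so no pair was merged, which does not show that cultures were separate. Single-cell data were not analysed here.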

Additional observations from a re-analysis of the deposited data

How the results depend on the processing

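The 7 members, 3 E proteins and other named list genes, 25 in all, gave 399 values over 16 alternatives, of which 344 kept their direction and side of the threshold, 31 lost and 6 gained a call, and 18 turned in sign. The genes nearest in pattern to each member were not run under the alternatives. Against a fold change of 1.2 (edgeR glmTreat), 1693 genes passed (1277 higher, 416 lower), with 1 of the 7 members and 8 of the list genes (7 higher, 1 lower), as the threshold itself is higher. Leaving out single libraries gave 6357 to 7273 genes, 3 members and 36 to 43 list genes. With the replicate block 7472 genes, 3 members and 38 list genes passed, and Bhlhe40 lost its call. Deviations of same-numbered libraries did not correlate, which cannot show that these libraries were unpaired. Without the filter, over 27250 genes, 3256 were higher and 4381 lower (list genes 23 and 21), and 4 members passed, with the median of all genes at -0.064. With the GC offset 3059 were higher and 4078 lower, and 4 members passed, with that median at -0.041.

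Values that turned in sign belonged mostly to members with few counts, and the cause was not tested. Id4 was at 0.0010 with limma-voom and 0.28 after thinning to the smallest library, and between -0.092 and 0.049 when single libraries were left out (0.049 and 0.013 without fresh replicates 1 and 3, 0.020 and 0.031 without RNA-Best replicates 1 and 2). Neurod1 was at 0.075 after thinning. Neurod4 was at -0.019 with the replicate block, -0.11 with the GC offset, -0.0022 with block and length offset and -0.038 without fresh replicate 2 (to 0.19 without RNA-Best replicate 1), and had too few counts to be tested after thinning. Tcf3 was at 0.035 with the GC offset. With the length offset, without and with the block, Tcf4 was at -0.20 and -0.20, Tcf12 at -0.073 and -0.079 and Bmpr2 at -0.18 and -0.19. Depth limits Neurod1 and Neurod4 most, with 10 to 26 counts in RNA-Best libraries.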
